A study of Homo sapiens with 24 samples.

Results

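Depletion of MCM7 by a doxycycline (Dox)-inducible short hairpin RNA in A375 cells, an established human melanoma line, was described across all expressed genes. The members are the 6 A375 libraries whose labels name the MCM7 hairpin (shMCM7 cells), out of 24 libraries in the series, and the same line without the hairpin (parental cells, 6 libraries) served as the control for Dox itself. In all 4 groups the cells had been arrested at the G1/S boundary by a double thymidine block. The groups were shMCM7 cells given Dox at 1 μg/ml over 72 hours (3 libraries), shMCM7 cells without Dox (3 libraries), parental cells with the same Dox treatment (3 libraries) and parental cells without Dox (3 libraries). The hairpin sits in the lentiviral vector pRSIT17, delivered at a multiplicity of infection of 1.4, and the cells are a puromycin-resistant population, not a single clone. The RNA control in the labels is the untransduced parental line, so that the vector, selection and a hairpin without a target are not matched between the shMCM7 and parental groups. The comparison asks which transcripts change when MCM7 is lowered in cells that are held before S phase.

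MCM7 is one of the subunits of the MCM2-7 ring, the helicase that is loaded onto replication origins in G1 by ORC, CDC6 and CDT1 and that unwinds DNA once origins fire. MCM subunits are made in excess over the origins used, and spare rings act as a reserve when replication is disturbed. A thymidine block depletes dCTP and holds cells at the entry to S phase, after licensing and before bulk DNA synthesis.

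The hairpin defines where the perturbation acts, so its target and guide are shown, both 5′ to 3′, with the guide seed (bases 2 to 8) and its match in the target in capitals.
MCM7 target: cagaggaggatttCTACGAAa
Predicted guide: tTTCGTAGaaatcctcctctg
The 21 bases of the target lie in the coding sequence of MCM7 across the junction of exons 8 and 9 of the 15-exon transcript ENST00000303887.9. On GRCh38 they occupy chr7:100097834-100097836 (3 bases, exon 8) and chr7:100097728-100097745 (18 bases, exon 9) on the minus strand. The full target was found in 5 transcripts of MCM7 and in no other gene of GENCODE 29. No other gene matched it with 1 or 2 mismatches, and 3 genes matched with 3 mismatches. The changes of those 3 genes are not given here. Matches to the seed alone were not searched, so effects of the hairpin on other transcripts were not tested.

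The 6 shMCM7 libraries held 186276440 to 283721575 counts, so that 3 counts correspond to 0.0106 to 0.0161 CPM, that is, counts relative to the sequencing depth of the library. CPM values are given after TMM scaling over the 12 A375 libraries. MCM7 (ENSG00000166508, chr7:100092728-100101940) was at 76.8, 76.3 and 77.4 CPM in the 3 Dox libraries. Without Dox it was at 353 CPM in replicate 2 and 359 CPM in replicate 3, and at 131 CPM in replicate 1. Replicate 1 therefore stood between the groups, closer to the Dox libraries, although the groups did not overlap. The log2 fold change (Dox against no Dox) was -1.87 (SE 0.30, FDR = 0.00116), which is 3.66-fold lower, and -2.21 when no Dox replicate 1 was left out. The parental level of MCM7 was 350 ± 4.80 CPM (no Dox) and 360 ± 8.22 CPM (Dox; SD, n = 3 each), and the change with Dox in shMCM7 cells minus that in parental cells was -1.92 in log2 units (FDR = 0.00111). FDR denotes the Benjamini-Hochberg adjusted p of edgeR's quasi-likelihood test over all genes tested.

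**Figure D1:**
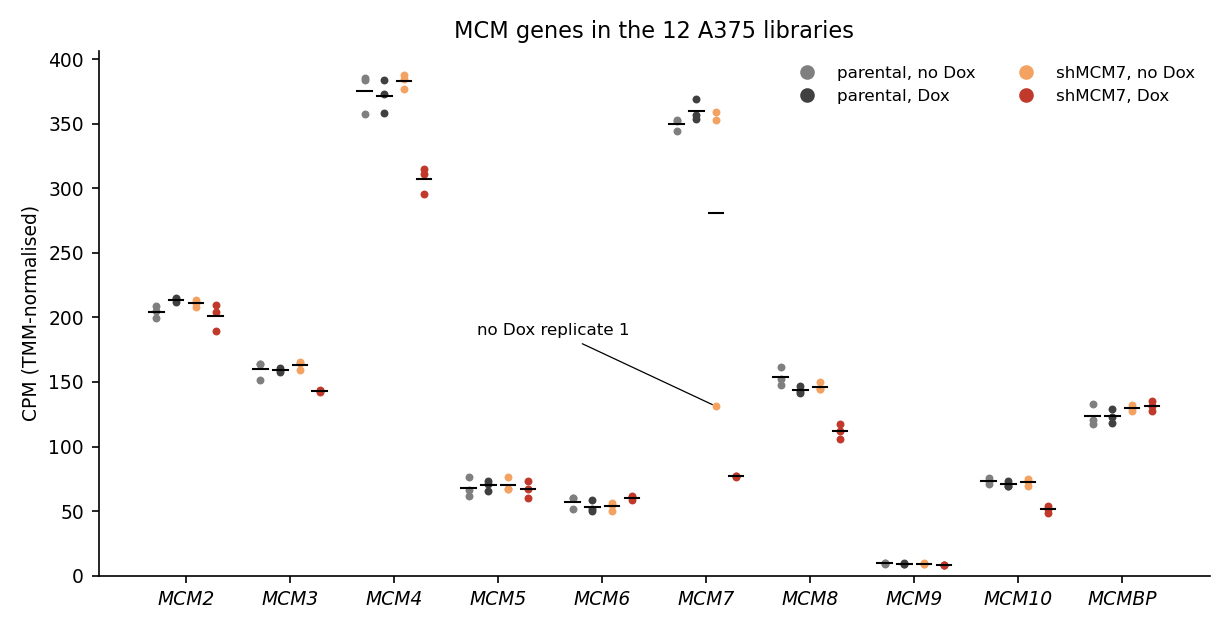
CPM of the MCM genes (vertical axis, linear) in the 12 A375 libraries; each point is 1 library, the short lines are group means of 3 libraries, and colours mark construct and Dox. MCM7 is at 76.3 to 77.4 CPM in the Dox-treated shMCM7 libraries, and no Dox replicate 1 is at 131 CPM, below the other no Dox libraries at 353 and 359 CPM.

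Of the other MCM genes none passed the thresholds for a call (a fold change of at least 1.5, p under 0.01 and FDR under 0.05), so that MCM7 was the only one of 10 tested members called. Among the remaining helicase subunits, MCM4 was at 377, 388 and 384 CPM without Dox and at 311, 315 and 295 CPM with Dox, a log2 fold change of -0.32 (FDR = 0.000933). MCM3 had a log2 fold change of -0.19, MCM2 -0.07, MCM5 -0.07 and MCM6 0.16. Of these, MCM3 and MCM4 had an FDR under 0.05 at less than 1.5-fold, and the Dox and no Dox libraries overlapped for MCM2 and MCM5. MCM10, which helps to activate the helicase at origins, had a log2 fold change of -0.50, and MCM8, which works in homologous recombination, one of -0.39. MCM9, the partner of MCM8, was at -0.21 and MCMBP, an MCM-binding chaperone, at 0.01.

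Over the transcriptome, 897 of 16087 genes tested (5.58%) were called up-regulated and 1037 (6.45%) down-regulated, and the median log2 fold change of all genes was 0.0045. The counts of called members in the gene lists below are to be read beside these shares of 5.58% and 6.45%. Most changes were moderate, with 29 up-regulated and 31 down-regulated genes changed at least 4-fold. A higher share of weakly expressed genes was called: in the lowest quartile of mean CPM 11.7% were called up-regulated and 13.7% down-regulated, against 2.06% and 1.86% in the highest quartile. Leaving out no Dox replicate 1 gave 965 up-regulated (5.93%) and 1146 down-regulated genes (7.05%) among 16266, and 813 of the 897 and 957 of the 1037 genes kept their call. In parental cells Dox gave 0 calls in either direction among 15993 genes (0%) by edgeR. There, 1121 genes had an unadjusted p below 0.05, and DESeq2 called 2 as up-regulated. When the change in shMCM7 cells was set against that in parental cells (the test against parental cells), 713 of 16334 genes (4.37%) had a positive and 1007 (6.17%) a negative call. These included 598 (66.7%) of the genes that rose in shMCM7 cells and 831 (80.1%) of those that fell, and no gene was called in opposite directions.

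**Figure D2:**
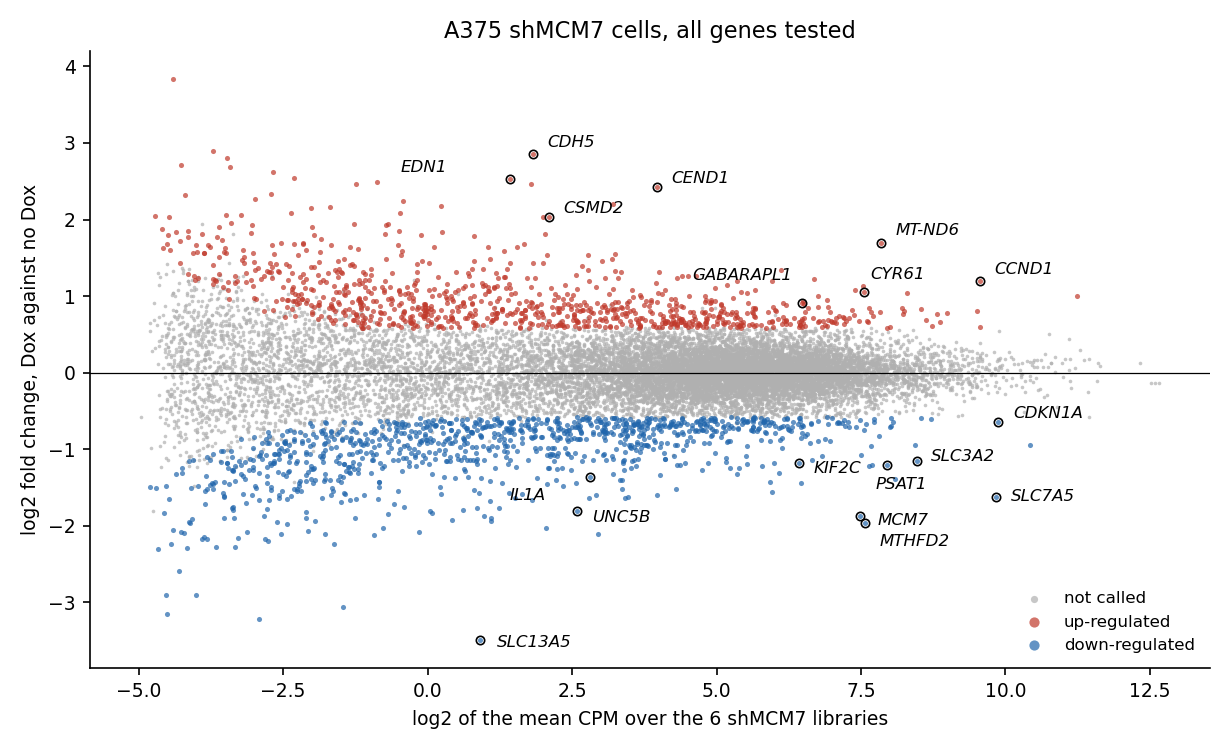
Log2 fold change (Dox against no Dox, vertical axis) of the 16087 genes tested against the log2 of their mean CPM over the 6 shMCM7 libraries; red and blue points are genes called up- and down-regulated, grey points are not called, and circles mark genes named in the text. MCM7 at -1.87 lies beside MTHFD2 at -1.96, and CDH5 at 2.85 and SLC13A5 at -3.49 stand at the edges among genes above 1 CPM.

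No Dox replicate 1 was intermediate for MCM7, and its place was therefore measured for the other genes. For each gene called without this library, a position was computed on log2(CPM + 0.5), in which 0 is the mean of no Dox replicates 2 and 3 and 1 is the mean of the Dox libraries. Over 2098 genes the median position was 0.233 (quartiles 0.0647 and 0.411), and 83.9% of the genes lay below 0.5. MCM7 itself was at 0.652, and 157 of the 2098 genes lay at or above that value. The same measure taken for the other no Dox libraries, each over the genes called without it, had a median of -0.0403 for replicate 2 (1703 genes) and -0.0713 for replicate 3 (1725 genes). For replicates 2 and 3 the 0 point includes replicate 1, so a lean of replicate 1 toward the Dox libraries lowers their positions. MCM7 itself was at -0.469 for replicate 2 and -0.499 for replicate 3, and the contrast is no independent check. Replicate 1 leaned from replicates 2 and 3 toward the Dox libraries, by less than MCM7 did for most genes. Replicate 1 was singled out for its MCM7 level, so that MCM7 lies above most genes follows from that choice. The genes were called with replicates 2 and 3, so a median above 0 for a library left out may in part come from their choice. No test was made, since this is 1 library, and the library was kept in the groups as labelled.

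Proteins that license and fire origins load and start the MCM ring, and their transcripts were all on the lower side. Of 22 genes tested for origin licensing and firing, 22 had a log2 fold change below 0 (median -0.30, against 0.0045 over all genes), and 1 was called down-regulated (2 without no Dox replicate 1). The called gene, DBF4B, encodes an activating subunit of the CDC7 kinase, which phosphorylates MCM proteins. It was at 52.3, 46.7 and 47.0 CPM without Dox and at 30.6, 29.3 and 28.8 CPM with Dox (log2 fold change -0.72, FDR = 6.45e-05). Of 33 replication fork genes, 5 (15.2%, against 6.45% over all genes) were called down-regulated and 0 up-regulated, with a median of -0.35. They encode clamp loader subunits (RFC3, -0.78, and RFC5, -0.60), subunits of DNA polymerases alpha (POLA2, -0.65) and epsilon (POLE2, -0.64), and the fork protection factor TIMELESS (-0.59). RFC3 was at 78.5, 82.5 and 84.2 CPM without Dox and at 47.8, 50.4 and 44.5 CPM with Dox, so the groups were well apart. TIMELESS and RFC5 lie close to the 1.5-fold limit and kept their call in 9 and 11 of 14 other fits. Of 32 genes for nucleotide synthesis, 0 were called by edgeR or DESeq2, with 18 at an unadjusted p under 0.05, and the smallest p belonged to the thymidine kinase TK1 (log2 fold change -0.54) and the AMP synthesis enzyme ADSS (0.44). In the test against parental cells 1 was called in each direction. DNA damage checkpoint and repair genes had a median of -0.19, with 1 of 57 called, the Fanconi anaemia gene FANCI (-0.71).

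Genes for mitosis were lower to a greater extent. Of 60 tested, 17 (28.3%, against 6.45% over all genes) were called down-regulated and 0 up-regulated. A log2 fold change below 0 was found for 59, and the median was -0.50. Without no Dox replicate 1 the number called was 20, and in the test against parental cells 13, whereas the median in parental cells alone was -0.04. In bulk RNA, fewer cells in G2 or mitosis and less RNA of these genes in each cell cannot be told apart. KIF2C, a kinesin that depolymerises microtubules at centromeres, was among the 5 genes with the smallest p of the whole comparison. It was at 111, 121 and 126 CPM without Dox and at 50.9, 55.7 and 50.7 CPM with Dox (log2 fold change -1.19, SE 0.065, FDR = 3e-05). CCNB1, the cyclin that activates CDK1 for entry into mitosis, was at 115, 129 and 143 CPM without Dox and at 64.1, 75.1 and 65.9 CPM with Dox (-0.92, FDR = 8.51e-05). For both genes no Dox replicate 1 was the lowest of its group and still well above the Dox libraries. The mitotic kinase PLK1 (-0.85), the kinetochore motor CENPE (-0.85) and GTSE1, a microtubule-associated protein (-0.78), also fell. FOXM1, the forkhead factor that drives late cell cycle genes, was the only one of 20 tested E2F, RB and DREAM genes that was called, and it went from 277, 281 and 302 CPM to 154, 171 and 163 CPM (log2 fold change -0.82, FDR = 3.73e-05).

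Late cell cycle genes are known for a CHR element (cell cycle genes homology region) next to CCAAT boxes, through which the DREAM and MMB-FOXM1 complexes act. The promoters of the mitosis list were searched for these letters because its members moved together. The 150 bases before the start are shown for the 4 called members with the largest falls among those that hold both elements there; they were picked for these letters and illustrate them. They are taken from RefSeq (GRCh38.p14), with TTTGAA or TTCGAA (CHR) and CCAAT in capitals on either strand.
PLK1: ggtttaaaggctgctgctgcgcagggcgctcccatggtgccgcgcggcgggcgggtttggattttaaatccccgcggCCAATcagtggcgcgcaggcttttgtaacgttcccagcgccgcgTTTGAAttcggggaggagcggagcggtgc
GTSE1: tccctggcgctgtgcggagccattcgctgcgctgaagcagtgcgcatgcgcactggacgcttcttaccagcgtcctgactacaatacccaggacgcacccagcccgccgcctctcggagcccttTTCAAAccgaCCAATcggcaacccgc
CDC25C: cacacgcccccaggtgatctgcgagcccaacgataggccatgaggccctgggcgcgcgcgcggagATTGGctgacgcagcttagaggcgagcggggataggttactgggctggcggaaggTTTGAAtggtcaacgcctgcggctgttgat
KIF4A: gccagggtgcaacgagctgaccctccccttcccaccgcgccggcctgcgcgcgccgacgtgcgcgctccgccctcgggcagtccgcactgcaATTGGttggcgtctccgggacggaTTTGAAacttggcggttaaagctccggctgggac
They lie at chr16:23678739-23678888 (PLK1, plus strand), chr22:46296720-46296869 (GTSE1, plus), chr5:138331805-138331954 (CDC25C, minus) and chrX:70289954-70290103 (KIF4A, plus). In windows from 250 bases before to 50 after the start, a CHR was present for 10 of the 14 called mitosis genes that matched RefSeq (71.4%), CCAAT for 11 (78.6%) and both for 9 (64.3%). Over all 27305 genes of the table, 19.5% held a CHR, 39.7% CCAAT and 7.85% both. Among the 12006 tested genes that matched RefSeq, the shares were 16.0%, 43.0% and 6.64%. The mitosis genes that were not called held these letters as often, with a CHR in 80.6% and CCAAT in 88.9% of 36 genes, so the letters were not more frequent among the members that passed the thresholds. E2F letters (TTTGGCGC, TTTCCCGC or TTCCCGCC) were present for 2 of the 6 called licensing and fork genes and for 46.3% of 41 that were not called. The share was 5.504% over all genes and 8.55% among the tested genes. A match is a description of sequence, not of binding.

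Cyclin and inhibitor genes of G1 changed in both directions. CCND1, encoding cyclin D1, the regulatory partner of CDK4 and CDK6, was at 556, 417 and 398 CPM without Dox and rose to 1186, 1015 and 944 CPM with Dox (log2 fold change 1.19, SE 0.13, FDR = 0.000155). CDKN1C, encoding the inhibitor p57, rose by 1.44. CDKN1A, encoding the inhibitor p21, was at 1086, 1167 and 1185 CPM and fell to 747, 726 and 738 CPM (-0.64, FDR = 6.45e-05). SKP2, a subunit of the ubiquitin ligase that degrades p27, fell by 0.68. These 4 were the called members of 15 tested, 2 in each direction. Among 44 p53 target genes, which include CDKN1A, 1 was called up-regulated and 2 down-regulated, the secreted stress cytokine GDF15 (-1.19) being the other that fell, and the median of the list was 0.08. CCNA1, the germline A-type cyclin, was among the genes with the largest falls, from 5.06, 8.14 and 6.70 CPM to 1.88, 1.66 and 1.32 CPM (log2 fold change -2.04).

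SUV39H1, a methyltransferase that places H3K9 trimethylation on pericentric heterochromatin, was the 1 called gene among 29 repressive chromatin factors (2 without no Dox replicate 1) and among the 5 genes with the smallest p. It was at 46.4, 50.8 and 52.3 CPM without Dox and at 22.4, 22.2 and 22.2 CPM with Dox (log2 fold change -1.17, SE 0.060, FDR = 3e-05). The parental means of SUV39H1 were 50.4 CPM (no Dox) and 52.9 CPM (Dox). The spread of SUV39H1 within each shMCM7 group was small beside the difference, with an SD of 3.10 CPM without Dox and 0.136 CPM with Dox.

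**Figure D3:**
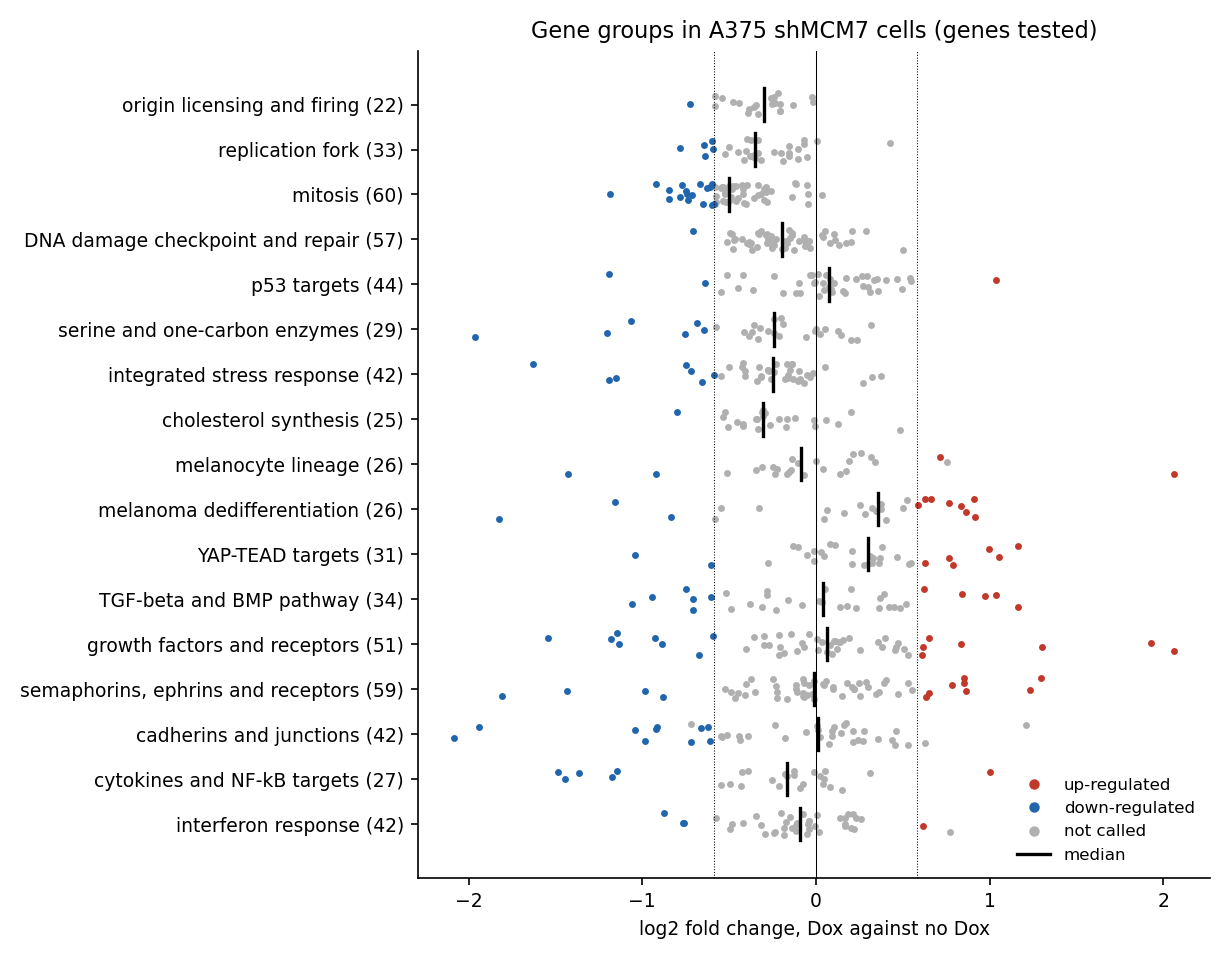
Log2 fold change (Dox against no Dox, horizontal axis) of each tested member of 17 gene groups; 1 point is 1 gene, red and blue points are called, black bars are group medians, and dotted lines mark 1.5-fold. Of 60 mitosis genes, 59 lie below 0 and 17 are called down-regulated, while the groups of growth factors, semaphorins and ephrins, and TGF-beta genes hold called members on both sides.

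Enzymes of serine and folate metabolism, which provide one-carbon units for purine and thymidylate synthesis, fell in part. Of 29 tested, 6 (20.7%, against 6.45% over all genes) were called down-regulated and 0 up-regulated, with a median of -0.24. MTHFD2, the mitochondrial methylenetetrahydrofolate dehydrogenase, was at 213, 379 and 318 CPM without Dox and at 77.1, 79.4 and 77.7 CPM with Dox, a 3.90-fold lower level (log2 fold change -1.96, SE 0.17, FDR = 6.45e-05). The Dox libraries lay within a few CPM of each other, and replicate 1 was the lowest without Dox. PSAT1, which makes phosphoserine, was at 311, 403 and 319 CPM without Dox and at 149, 144 and 157 CPM with Dox (-1.21). The glycine decarboxylase GLDC (-1.06), the mitochondrial folate carrier SLC25A32 (-0.76) and CTH, which makes cysteine from cystathionine (-0.68), fell as well.

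The integrated stress response, in which ATF4 raises amino acid transport and synthesis, overlaps these enzymes in its known targets. Of 42 genes tested, 7 (16.7%, against 6.45% over all genes) were called down-regulated and 0 up-regulated. Of the 42, 38 lay below 0, and the median was -0.25, whereas in parental cells the median was 0.15. In the test against parental cells 11 were called down-regulated. Without no Dox replicate 1 the number was 5. SLC7A5 and SLC3A2, the light and heavy chain of the LAT1 transporter for large neutral amino acids, changed together. SLC7A5 was at 1420, 1614 and 1126 CPM without Dox and at 502, 450 and 397 CPM with Dox (log2 fold change -1.63, SE 0.13, FDR = 5.22e-05). SLC3A2 was at 519, 537 and 401 CPM and at 244, 209 and 205 CPM (-1.15). For both transporters replicate 3 was the lowest library without Dox, and replicate 1 lay within the range of replicates 2 and 3. The bZIP factor ATF5 (-0.75) and CHAC1, which degrades glutathione (-0.72), were called too, CHAC1 not without no Dox replicate 1. The letters TGATGCAA, part of the known ATF4 site, were present for 1 of 7 called and 10 of 28 not called genes of the list. They were present for 1.08% of all genes and 0.758% of the tested genes. Of 23 tested genes of the unfolded protein response, 0 were called by edgeR or DESeq2 and 13 had an unadjusted p under 0.05, the smallest p being that of HERPUD1, an endoplasmic reticulum degradation factor (-0.44), and PDIA4, a protein disulfide isomerase (-0.40). In the test against parental cells 1 was called down-regulated.

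Other metabolic groups held few calls. The most strongly down-regulated gene above 1 CPM was SLC13A5, the plasma membrane citrate transporter (ENSG00000141485, chr17:6684713-6713567). It was at 2.21, 3.86 and 4.22 CPM without Dox and at 0.255, 0.395 and 0.282 CPM with Dox, which is 11.2-fold lower (log2 fold change -3.49, SE 0.27, FDR = 4.67e-05). Replicate 1 was again the lowest of the no Dox libraries and remained well above the Dox libraries. Cholesterol synthesis genes had a median of -0.30 with 1 of 25 called, the lipid transfer gene STARD4 (-0.80). The number was 2 without no Dox replicate 1 and 5 in the test against parental cells, where the synthesis enzymes EBP and DHCR7 and the transcription factor SREBF1 were among those called. Of 18 genes for fatty acid synthesis, the desaturase SCD (-0.62) and ACSL4, which activates long-chain fatty acids (0.59), were called, and without no Dox replicate 1 ACSL4 lost its call and 2 genes were called down-regulated. In the glycolysis and hypoxia list, 1 of 36 was called up-regulated, the vasoactive peptide adrenomedullin (ADM, 0.60), and 4 down-regulated, the carbonic anhydrases CA9 (-0.92) and CA12 (-0.76), the pyruvate dehydrogenase kinase PDK3 (-0.78) and the aldolase ALDOC (-0.67). NRF2 targets split into ABCC3 (0.76), an export pump, and the aldo-keto reductase AKR1B10 (1.03) on the upper side, and OSGIN1 (-0.74), not called without no Dox replicate 1, and the NRF2 inhibitor KEAP1 (-0.59) on the lower. GABARAPL1, an ATG8 family protein of autophagosomes, had one of the 5 smallest p, at 62.7, 61.7 and 62.3 CPM without Dox and 112, 122 and 116 CPM with Dox (0.91, FDR = 3e-05). In its list of 47 lysosome and autophagy genes, WIPI1, which acts early in autophagosome formation (0.65), also rose, and the protease CTSV (-1.53) fell.

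The melanocyte identity of the cells was checked on its markers. SOX10, the neural crest factor of this lineage, was at 500.2 to 621 CPM over the shMCM7 libraries, and MITF, its melanocyte master regulator, at 30.6 to 45.0 CPM. The pigment genes TYR and MLANA were at or below 0.00854 CPM, the transcript of PMEL at 1.91 to 5.23 CPM, and 10 of the 29 listed genes stayed under 1 CPM in all 6 libraries. A375 thus carried lineage factors with little pigment gene expression. Of 26 tested, the pigment genes DCT (-1.43) and PMEL (-0.92) were called down-regulated and GPNMB (0.71) and KIT (2.06) up-regulated. KIT rested on at most 48 counts in a library, and neither KIT nor DCT was called in the test against parental cells. Among markers of other cells, the leukocyte genes PTPRC, CD3D, CD3E and MS4A1 and the surfactant genes SFTPA1, SFTPB and SFTPC of lung epithelium did not pass the filter. Other genes of these lists were clearly present, with HLA-DRA at 423 to 534 CPM, CD68 at 52.2 to 82.5 CPM, LYZ at 9.25 to 16.3 CPM, and the keratins KRT18 at 258 to 368 CPM and KRT8 at 74.8 to 94.1 CPM. The leukocyte list summed to 507 to 608 CPM without Dox and 512 to 589 CPM with Dox. The summed CPM of the lung epithelium list was 506 to 555 without Dox and 529 to 609 with Dox, and that of the fibroblast and endothelial list 34.1 to 41.8 and 39.1 to 50.1, and their part in the changes was not tested.

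Genes associated with dedifferentiated melanoma states changed on both sides, with 8 of 26 (30.8%) called up-regulated and 3 down-regulated and a median of 0.36. AXL, a receptor tyrosine kinase, was at 358, 318 and 327 CPM without Dox and at 514, 557 and 642 CPM with Dox (log2 fold change 0.77, FDR = 0.000163). JUN (0.92), a subunit of AP-1, the Wnt5a receptor ROR1 (0.91), the kinase NUAK1 (0.86) and the PDGF receptor PDGFRB (0.84) rose as well. ROR2, the relative of ROR1, moved the other way, from 0.315, 0.446 and 0.325 CPM to 0.0803, 0.114 and 0.115 CPM (-1.83). The retinoid receptor RXRG (-1.16) also fell. SOX2 was called (-0.83), but its groups overlapped, with 2.83 CPM in no Dox replicate 1 against 2.90 CPM in Dox replicate 1.

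Targets of YAP and TEAD, the effectors of the Hippo pathway, had 6 of 31 members (19.4%) called up-regulated and 2 (6.45%) down-regulated. Over all genes the shares were 5.58% and 6.45%. The median of the list was 0.30. The median was 0.08 in parental cells and 0.14 in the test against parental cells, in which 5 were called up-regulated and 2 down-regulated. CYR61, a secreted matricellular protein, was at 136, 127 and 104 CPM without Dox and at 260, 255 and 251 CPM with Dox (log2 fold change 1.06, FDR = 6.38e-05). TGFB2 (1.16), FJX1 (1.00) and the CYR61 relative CTGF (0.79) rose, CTGF without a call in the test against parental cells. The 2 that fell were regulators, the transcription factor TEAD2 (-1.04) and the coactivator WWTR1 (-0.60). WWTR1 was at 407, 556 and 561 CPM without Dox and at 351, 333 and 321 CPM with Dox, with replicate 1 nearer to the Dox libraries. Of 30 SRF and contractile genes, 1 was called, the actin-binding TAGLN (0.81), and the median was 0.16. Leaving out no Dox replicate 1 gave 3 up-regulated genes, with the calponin CNN1 and the tropomyosin TPM1 added, whereas the test against parental cells gave 0 up-regulated and 1 down-regulated gene (TAGLN2). MAPK output genes gave the phosphatase DUSP5 (0.75) beside CCND1 on the upper side, and the immediate early genes EGR2 (-1.13) and IER3 (-0.70) on the lower.

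TGF-beta ligands diverged. TGFB2 rose from 1.22, 1.53 and 2.14 CPM to 3.03, 3.67 and 4.31 CPM, while TGFB1 fell from 90.1, 93.8 and 103 CPM to 63.7, 52.3 and 55.1 CPM (log2 fold change -0.75, FDR = 0.000149) and TGFB3 fell by 0.71. The type II receptor TGFBR2 rose from 62.0, 70.7 and 72.6 CPM to 117, 130 and 121 CPM (0.84, FDR = 6.19e-05). The BMP antagonist NOG (0.98) and the feedback inhibitor PMEPA1 (0.62) rose, and the ligand BMP7 (-1.06), the BMP antagonist CHRDL1 (-0.95) and LTBP1, which binds latent TGF-beta (-0.71), fell. In all, 5 of 34 genes of the pathway (14.7%) were called up-regulated and 6 (17.6%) down-regulated, against 5.58% and 6.45% over all genes.

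Growth factors and receptors were called in both directions. Of 51 tested, 7 (13.7%) were called up-regulated and 8 (15.7%) down-regulated, against 5.58% and 6.45% over all genes. Of the ligands, PDGFB (1.30) and the neurotrophin BDNF (0.65) rose, BDNF without a call when no Dox replicate 1 was left out, and NRG4 (-1.54) and IGF2 (-0.92) fell. Of the receptors, FGFR4 (-1.15) and the VEGF-C receptor FLT4 (-1.18) fell. FGFR4 was at 14.4, 14.2 and 14.8 CPM without Dox and at 7.07, 6.33 and 6.24 CPM with Dox, with no Dox replicate 1 inside the range of its group.

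Guidance molecules, which steer axons and migrating cells, contributed 8 up-regulated (13.6%) and 4 down-regulated genes (6.78%) of 59. Over all genes the shares were 5.58% and 6.45%. The netrin receptor UNC5B was at 8.36, 9.72 and 10.0 CPM without Dox and at 2.73, 2.87 and 2.46 CPM with Dox (log2 fold change -1.81, SE 0.10, FDR = 3e-05). Its relative UNC5C was called up-regulated (0.85), not so without no Dox replicate 1, and the ligand NTN4 rose by 0.86. The ligands SLIT3 (1.30) and SEMA5A (1.23) rose and SEMA3G (-0.98) fell. Among the ephrin receptors, EPHB1 rose (0.85) and EPHB6 (-1.43) and EPHB3 (-0.88) fell.

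Of 42 tested cell-cell junction genes, 10 (23.8%) were called down-regulated and 0 up-regulated, against 6.45% and 5.58% over all genes. The median of the list was 0.01, and 22 members lay above 0. The fit with the replicate number as a block called 1 up-regulated. CDH5, a junction cadherin called up-regulated (2.85), was not in this list. The genes with the largest falls encode LSR (-1.94), a protein of tricellular junctions, the claudin CLDN4 (-0.99), the junctional adhesion molecule F11R (-0.92), the cadherin CDH15 (-1.04) and the connexin GJB2 (-2.08). LSR was at 2.55, 3.58 and 4.05 CPM without Dox and at 1.05, 0.741 and 0.854 CPM with Dox. GJB2 stayed at or below 0.117 CPM in all shMCM7 libraries. Without no Dox replicate 1, 12 junction genes were called down-regulated.

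Several inflammatory genes fell. In the list of cytokines and NF-kB targets 5 of 27 genes (18.5%) were called down-regulated and 1 (3.7%) up-regulated, with a median of -0.17. CXCL8, the neutrophil chemokine, was at 43.5, 36.5 and 40.6 CPM without Dox and at 19.8, 18.6 and 15.1 CPM with Dox (log2 fold change -1.18, FDR = 6.9e-05). The alarmin IL1A was at 10.3, 10.4 and 9.65 CPM and at 4.36, 3.84 and 3.61 CPM (-1.36, FDR = 3.04e-05). CXCL3 (-1.45) and TNFRSF9 (-1.49) fell, CSF2 (-1.15) lost its call without no Dox replicate 1, and the monocyte chemokine CCL2 rose (1.00). Parental cells had a log2 fold change of -0.36 for CXCL8 and -0.26 for IL1A with Dox, neither called. Of 42 interferon response genes, 3 (7.14%) were called down-regulated and 1 (2.38%) up-regulated, against 6.45% and 5.58% over all genes. Those that fell were the antiviral genes HERC5 (-0.87), OAS1 (-0.77) and OASL (-0.76). The 1 that rose was IFI44L (0.62), which was not called without no Dox replicate 1. Without that library 5 were called down-regulated, IFIT1 and OAS3 being the additional ones. Of 26 antigen presentation genes, 0 were called by edgeR or DESeq2 and 8 had an unadjusted p under 0.05. Their smallest p were those of the class I transactivator NLRC5 (0.27) and of HLA-DPB1 (0.30).

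The strongest increases above 1 CPM that were also called without no Dox replicate 1 and in the test against parental cells came from genes of different functions. CDH5 (ENSG00000179776, chr16:66366622-66404786), the cadherin of endothelial junctions, was at 0.887, 1.06 and 0.630 CPM without Dox and at 6.45, 6.61 and 5.55 CPM with Dox. The log2 fold change was 2.85 (SE 0.18, FDR = 3.04e-05), a 7.22-fold rise, and parental cells stayed at 0.268 to 0.458 CPM on average. Of the other endothelial genes in the marker list, PECAM1 and VWF stayed under 1 CPM and the VEGF receptor KDR was at 10.6 to 24.5 CPM (log2 fold change 0.35), and none of them was called. Of the other called genes named above, ADM, CA9, OSGIN1, IER3, TAGLN, NOG, LTBP1, SLIT3, UNC5C, FLT4, OASL, CSF2, WIPI1 and CDH15 were not called in the test against parental cells. EDN1, encoding the vasoconstrictor endothelin-1, rose from 1.14, 0.567 and 0.685 CPM to 4.30, 4.28 and 5.20 CPM (2.52, FDR = 7e-05).

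Several of the others are known from neurons, as are C1QL1 and TAGLN3 among the genes that fell. CSMD2, a large transmembrane protein of synapses, was at 1.61, 1.61 and 1.82 CPM without Dox and at 6.83, 7.21 and 6.70 CPM with Dox (log2 fold change 2.04, SE 0.096), the smallest p of all genes that rose. CEND1, which promotes cell cycle exit of neuronal precursors, rose from 7.56, 3.75 and 3.47 CPM to 32.2, 20.5 and 26.8 CPM (2.43), with replicate 1 above the other no Dox libraries. FXYD7 (2.47), a regulator of the sodium pump, FAIM2 (2.204), an inhibitor of Fas-mediated death, the potassium channel KCND3 (2.17), the teneurin TENM4 (1.79) and INSYN2B (1.68) completed this group, together with KRTAP4-8 (1.84), a keratin-associated protein, and the glucagon-like peptide 2 receptor GLP2R (1.81). Potassium channel genes (KCN symbols), which are not among the lists, went both ways, with 12 of 63 called up-regulated and 12 down-regulated. The shares over all genes were 5.58% and 6.45%, and those in the lowest quartile of mean CPM 11.7% and 13.7%. Many of the 63 were weakly expressed, with a median of 0.699 CPM and 29 at a mean of 1 CPM or more. Against parental cells, 8 had a positive and 12 a negative call. Whether their low level accounts for these calls was not tested. MT-ND6, the only protein encoded on the light strand of the mitochondrial genome, was at 148, 94.0 and 83.4 CPM without Dox and at 385, 359 and 314 CPM with Dox (1.70, FDR = 0.000167). Its neighbours lie on the opposite strand, and whether the counting used strand is not given in the sources used here, so its value may include reads from the other strand.

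**Figure D4:**
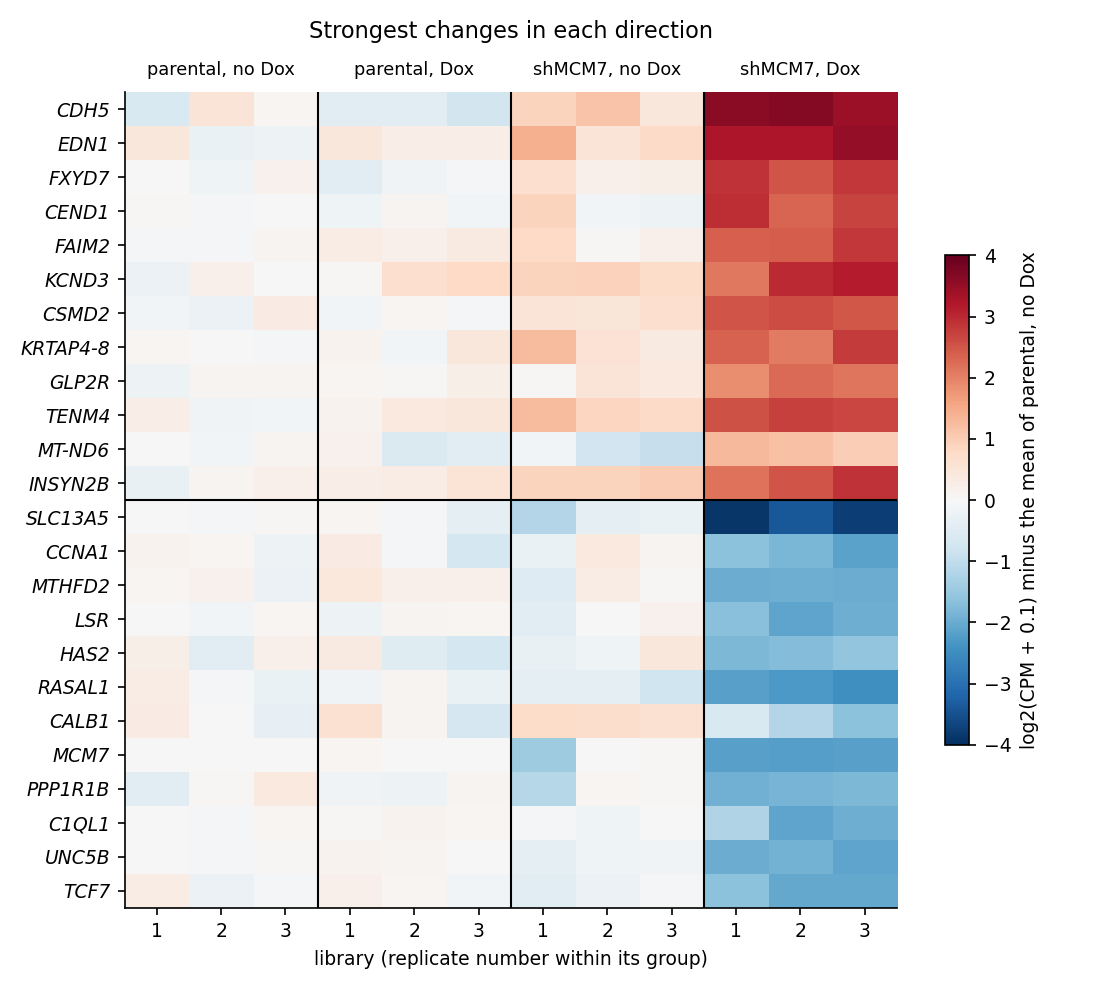
Log2(CPM + 0.1) of the 12 genes with the largest increases (top) and the 12 with the largest falls (bottom) in each of the 12 A375 libraries, as a difference from the mean of the parental libraries without Dox; red is higher and blue is lower. The genes were picked for calls in these libraries and for shMCM7 groups that do not overlap. That the 3 Dox-treated shMCM7 libraries stand apart from the other 9 therefore follows from the choice of genes. No Dox replicate 1 leans toward the Dox-treated shMCM7 libraries for MCM7, PPP1R1B, SLC13A5 and CEND1.

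Beside SLC13A5, CCNA1, MTHFD2, LSR, MCM7 and UNC5B, the largest falls above 1 CPM were those of the hyaluronan synthase HAS2 (log2 fold change -1.92), the calcium buffer CALB1 (-1.88), the phosphatase inhibitor PPP1R1B (-1.83), C1QL1 (-1.81), a secreted synaptic protein, and the Wnt effector TCF7 (-1.80), together with RASAL1, a RAS GTPase-activating protein, which fell from 3.69, 3.69 and 2.76 CPM to 1.01, 0.914 and 0.794 CPM. PPP1R1B resembled MCM7 in its place for no Dox replicate 1, with 0.838 CPM against 2.07 and 2.04 CPM in replicates 2 and 3 and 0.436 to 0.487 CPM with Dox. TAGLN3, a neuronal calponin family gene and one of the 5 with the smallest p, fell from 16.4, 16.7 and 17.2 CPM to 5.92, 5.66 and 4.75 CPM (-1.63, SE 0.092, FDR = 3e-05). Among called genes with a mean of at least 1 CPM that GENCODE does not class as protein coding, PKD1L2 had the largest rise (1.53). PKD1L2 is annotated as a polymorphic pseudogene, and the unconfirmed transcripts AP003108.3 (1.09) and AL662907.1 (1.05) followed. AL390755.1 (-1.15), TRAC (-0.83), a T cell receptor constant gene, and the pseudogene ZNF788P (-0.76) had the largest falls of that kind.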

How the data were processed

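RNA of shMCM7 and parental A375 cells was sequenced, and the authors deposited 1 table of raw read counts per library, not normalised. The submitters' processing notes name bcl2fastq 2.19, Trimmomatic, STAR 2.7.1, featureCounts, edgeR and GRCh38.p10. The strand setting of the counting is not given in the sources used here, so overlapping and antisense genes are uncertain. Of 21386 identifiers, 21349 matched GENCODE 29. A549 libraries were not used here.

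Counts were tested in R 4.3.3 with edgeR 4.0.16 (TMM, filterByExpr, glmQLFit, glmQLFTest) on the 6 libraries compared, or on all 12 A375 libraries for the difference of the Dox effects. Fold changes come from these fits, CPM from TMM factors over the 12 libraries. A call needed a fold change of at least 1.5, p under 0.01 and FDR under 0.05. Alternatives, among them DESeq2 1.42.0, are given at the end, and the steps were checked on simulated data. The study calls the 3 libraries of a group biological replicates, and nothing names separate cultures, so p-values measure the spread between these libraries. No 2 libraries agreed within sampling noise. As a check of pairing, deviations of same-numbered shMCM7 libraries from their group means correlated (r = 0.338, 0.195 and 0.340 across genes), while the 3 parental pairs had r = 0.278, -0.101 and 0.511, so that not every pair correlated. The replicate number was taken as a block in an alternative fit.

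Named genes were MCM7, the MCM genes, the 12 largest changes in each direction (protein coding, mean of at least 1 CPM, groups apart, called without no Dox replicate 1 and against parental cells, leaving out PI3K, metalloproteinase, TIMP and matrix genes), up to 5 called members per direction of each of 33 gene lists or else the 2 smallest p, the 3 largest non-coding changes per direction, and the 5 smallest p. The non-coding changes were those of called genes with a mean of at least 1 CPM. Genes and lists were chosen with earlier results of these data known. Markers of other cells, and list members named because only another fit called them, fall outside this rule and were picked after their values were seen. Promoters are RefSeq windows from 250 bases before to 50 after the start. Figures were drawn in Python 3.11.15. Some results are not reported here.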

Additional observations from a re-analysis of the deposited data

Results flagged for a closer look

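A difference between the groups, shMCM7 against parental, in the response to Dox was found by edgeR for 713 genes in the positive and 1007 genes in the negative direction, and Dox in parental cells by itself gave 0 calls (1121 genes at an unadjusted p under 0.05, 2 calls by DESeq2). For MCM7 the difference was -1.92 on the log2 scale. The vector and its selection are present in the shMCM7 cells only, so that their response to Dox and that to lower MCM7 cannot be told apart in this test. Dixon's test for a single outlying value was not applied to groups of 3 libraries, and no Dox replicate 1, at 131 CPM for MCM7 against 353 and 359 CPM, is described in the report.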

How the results depend on the processing

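Against a 1.5-fold change (glmTreat), 220 genes rose and 279 fell in shMCM7 cells, and the numbers were 89 and 184 in the test against parental cells, since that test asks for more than a point estimate past the limit. The other alternatives kept these counts within 1.5 times: leaving out each library gave 794 to 965 and 890 to 1146 in shMCM7 cells, and 629 to 822 and 862 to 1091 against parental cells. With the replicate number as a block 969 and 1091 genes were called, and 814 and 1107 against parental cells; it changed no call of a named gene. The block without no Dox replicate 1, chosen after seeing the data, gave 1046 and 1269. In parental cells, where same-numbered libraries correlated in 2 of 3 pairs (r = 0.278, -0.101 and 0.511) and the number was not taken as a pairing, 12 genes were called up-regulated with the block, 2 with DESeq2 and 0 to 1 with a library left out. Of the values near 0, MCM5 ran from -0.14 to 0.00067 with a library left out, the latter without Dox replicate 2. MCMBP ran from -0.012 (without Dox replicate 2) to 0.035, and was at -0.0033 without no Dox replicate 1 and at -0.0030 there with the block. Of 136 named called genes, 131 kept their call with DESeq2, 66 with glmTreat and 123 to 131 with a library left out, and none changed sign. MCM7 lay between -2.21 and -1.65 with a library left out. Genes far below 1 CPM rest on few counts (3 counts correspond to 0.0106 to 0.0161 CPM), and 3 libraries a group limit the precision of every value.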

Other observations

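Histone genes were not among the lists and were examined after the values had been seen. Histones of the clustered families package DNA, and most of their transcripts lack a poly(A) tail and are made in S phase, so that the amounts seen depend on how RNA was captured. Of 41 tested genes with HIST symbols, 22 were called up-regulated and 0 down-regulated, 40 lay above 0, and the median log2 fold change was 0.75, against 0.0045 over all genes and -0.19 for these genes in parental cells. Without no Dox replicate 1 the number called was 18, with DESeq2 18, with the replicate number as a block 24, and in the test against parental cells 16. The summed level over the family was 42.9, 37.5 and 29.8 CPM without Dox and 72.4, 65.8 and 65.3 CPM with Dox, so the groups did not overlap. HIST3H2A was at 5.26, 4.47 and 3.32 CPM without Dox and at 14.2, 9.44 and 12.2 CPM with Dox (log2 fold change 1.46, FDR = 0.000301, edgeR). HIST1H2AC (1.09), HIST1H2BD (1.23) and HIST1H2BK (0.81), genes of the cluster on chromosome 6, rose as well. Of the 41 genes, 8 reached a mean of 1 CPM, and near-identical copies may share reads, which makes single members uncertain. Of the 75 genes of chromosome 6 called up-regulated, 16 were histone genes, and that chromosome had 9.004% of its genes called up-regulated against 5.58% overall.

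Zinc finger genes with ZNF symbols lay mostly on the other side, with 55 of 496 called down-regulated, 10 up-regulated and a median of -0.09. Their median in parental cells was -0.06. In the test against parental cells 48 were called down-regulated and 15 up-regulated. Over all genes tested, 6.45% were called down-regulated and 5.58% up-regulated. Chromosome 19, which holds large clusters of them, had 8.60% of its genes called down-regulated and 3.22% up-regulated. Among the 13 proteins encoded by mitochondrial DNA, MT-ND6 was the only one called, and the median of the 13 was 0.18. MT-CYB, whose gene lies next to MT-ND6 on the opposite strand, had a log2 fold change of 0.50 (FDR = 0.0123, edgeR), under the 1.5-fold limit. Of 342 genes in other annotation classes, mostly unconfirmed transcripts, 46 (13.45%) were called up-regulated and 8 (2.34%) down-regulated. The shares over all genes were 5.58% and 6.45%. Weakly expressed genes were called more often, and the expression level of these 342 was not compared.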
